A study of Mus musculus with 15 samples.

Results

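The mRNAs of 333 genes, most of them encoding splicing factors and other RNA-binding proteins, were compared between MII oocytes of 10–12 m and 8–10 w mice. Oocytes were denuded and pooled, and 3 pools per age were sequenced, so that 6 of the 15 samples of the series carried this comparison. All donors were C57BL/6 females superovulated with 5 IU PMSG and 5 IU hCG, given 46–48 h apart, and oocytes were taken 14–15 h after hCG. The 8–10 w group stood for young adults and the 10–12 m group for reproductively aged mice, the labels name no transgene and no treatment other than the hormones in either group, and 3 pools from 6–8 m mice and 2-cell embryos of the same ages were used only for comparison. By the study's methods the aged mice had bred before and the young controls were virgin, so that age and breeding history cannot be told apart. The labels do not say whether pools came from separate animals or days, so the p-values below measure only the spread between these pools. The stage was taken from the sample titles and sources, because the extraction text attached to the oocyte samples speaks of 2-cell embryos. None of the 26 marker genes chosen to check the cell type is among the 333 genes in the files, so that the oocyte identity could not be checked from expression.

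An MII oocyte is arrested in the second meiotic division and does not transcribe. Its mRNA was made during growth and is stored, translated or degraded until the embryo activates its own genome. In pooled oocytes, fewer mRNA molecules per cell and a different share among all mRNAs cannot be told apart, because every value is relative to the library. Splicing itself is carried out by small nuclear ribonucleoproteins (snRNPs), each an RNA with a ring of Sm or LSm proteins, that assemble on the pre-mRNA. SR proteins and hnRNP proteins bind the pre-mRNA and favour or repress the use of nearby splice sites, and the exon junction complex marks the joined exons of the finished mRNA.

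Each library held between 263866 and 356474 reads on the 333 genes. With the reads on no listed gene and on more than 1 gene included, the library sizes were 16679252, 14676140 and 19004938 reads in the 8–10 w pools and 18722138, 17276441 and 14643083 reads in the 10–12 m pools. Between 319 and 323 of the 333 genes had at least 1 read in a library of any age, and 3 genes (A1cf, Dqx1 and Pabpc5) had 0 reads in all 9 oocyte libraries. The listed genes took 1.90% ± 0.0158 (SD, n = 3) of the 10–12 m library size and 1.82% ± 0.0167 (SD, n = 3) of the 8–10 w one, and the groups did not overlap. An exact permutation test gave a two-sided p = 0.1, which is the smallest that 3 against 3 samples allow. Taken over all sequenced reads, the shares were 0.772% ± 0.00191 and 0.720% ± 0.0474 (SD, n = 3), and the groups overlapped (exact permutation test, two-sided p = 0.4). The share of all sequenced reads with low alignment quality, a class that includes reads mapping to several places, was 37.6% ± 0.220 in 10–12 m and 39.9% ± 1.52 in 8–10 w (SD, n = 3). Unaligned reads made up 21.8% ± 0.417 and 20.4% ± 0.926 (SD, n = 3). Neither class overlapped between the ages (exact permutation test, two-sided p = 0.1 each), and the part of these differences in the gene results was not tested.

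Among the listed genes, the most abundant mRNA in every library by reads was Wtap, which encodes a subunit of the complex that writes m6A on RNA. Per kilobase of RefSeq mRNA, Rbm38 was the highest with 453 CPM per kb (CPM being read counts scaled to a common library size with the TMM factors of edgeR), followed by Wtap with 311, Snrnp27 with 286 and Magoh with 271. This order depends on the transcript length used, and the GENCODE transcript of Wtap has 2060 nt. Wtap was at 1578, 1651 and 1672 CPM in the 8–10 w pools and at 1317, 1407 and 1647 CPM in the 10–12 m pools, so that the third aged pool reached the young range. The 10 most abundant genes took 35.5% ± 0.537 of the listed reads in 8–10 w and 34.1% ± 0.318 in 10–12 m (SD, n = 3). These shares did not overlap either (exact permutation test, two-sided p = 0.1). Over the tested genes, which differ widely in level, the Pearson correlations of log2 CPM between libraries were between 0.982 and 0.993, within and between ages. The third 10–12 m pool had the lowest correlations, between 0.982 and 0.988, and stood slightly apart from the other aged pools.

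Few of these mRNAs passed the adjusted test between the ages, and none of those by a log2 fold change above 1 in size. Of the 333 genes, 293 had enough reads to be tested, and the other 40 averaged at most 9.5 reads per library. In edgeR, 12 of the 293 genes (4.1%) had an adjusted p-value below 0.05, of which 5 (1.71%) were higher and 7 (2.39%) were lower in 10–12 m oocytes. The higher mRNAs were Ybx1, Srrm1, Ubl5, Magoh and Snrpe, and the lower ones were Snu13, Matr3, Rbm7, Ddx5, Srsf10, Esrp1 and Uhmk1. DESeq2 called all 12 of them and 4 more, 7 higher and 9 lower in all. With the replicate number of the sample titles as a block, edgeR called only 3 genes, Ybx1, Snu13 and Matr3. The labels do not say that these numbers mark shared mice or days. Scaling by library totals without TMM factors, which moved the median log2 fold change of all genes by 0.122, gave 15 genes, of which 12 were higher and 3 lower, and 8 of the 12 genes were among them. Directions below are therefore relative to the other listed genes.

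The changes were small. The log2 fold changes of the 12 genes had sizes between 0.29 and 0.69, and the median size over all tested genes was 0.15. Of the tested genes, 275 (93.9%) changed by less than 0.5 in either direction. At an adjusted p-value below 0.05 together with a log2 fold change above 1 in size, the thresholds of the study's methods, edgeR called 0 genes and DESeq2 called 0 genes. At an unadjusted p-value below 0.05 and any fold change there were 52 genes (17.7%), 23 (7.85%) higher and 29 (9.9%) lower. The largest change was that of Ppil1, a peptidyl-prolyl isomerase of the catalytic spliceosome, which had so few reads (0.902 ± 0.171 CPM in 8–10 w and 0.432 ± 0.274 in 10–12 m, SD, n = 3) that its log2 fold change of −1.0 came with a standard error of 0.53 (edgeR adjusted p = 0.366).

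**Figure D1:**
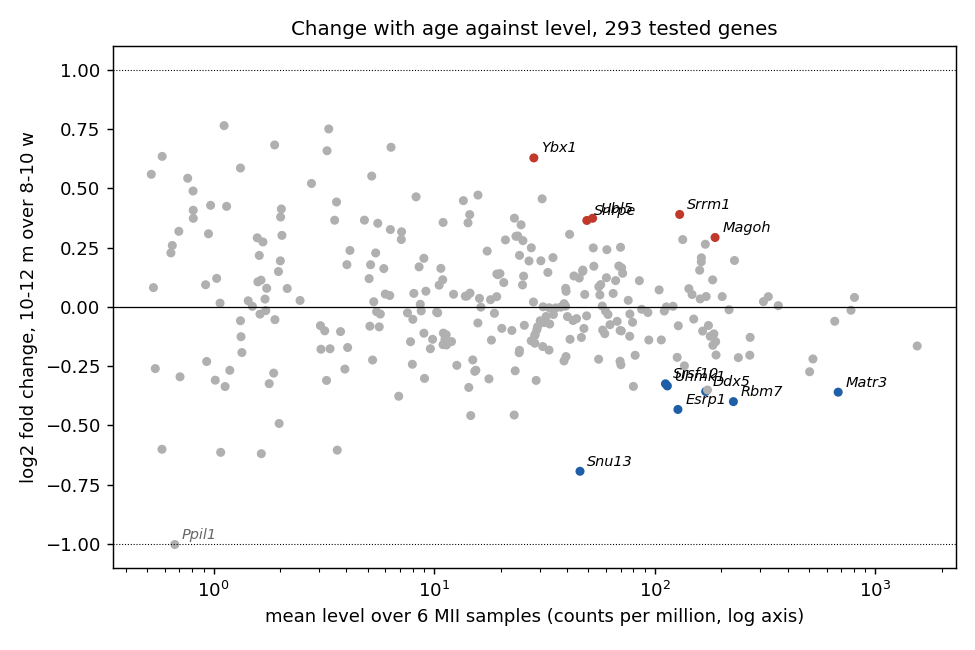
Log2 fold change of 10–12 m over 8–10 w MII oocytes (vertical axis) against the mean level over the 6 samples in CPM (horizontal log axis), 1 point per tested gene (n = 293). Red and blue points are the 5 higher and 7 lower genes with an edgeR adjusted p-value below 0.05, and dotted lines mark a log2 fold change of 1 in size. The 12 genes all lie above 20 CPM, while points of the same size at low levels are grey.

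Snu13 had the smallest p-value and the largest change of the 12. It encodes a protein of the tri-snRNP that binds the 5′ stem-loop of U4 snRNA and also the box C/D snoRNAs, and the gene lies on chromosome 15 (15:82040525-82047598, minus strand, mm10). Its level was 60.2, 54.4 and 55.0 CPM in the 8–10 w pools and 34.9, 34.2 and 35.9 CPM in the 10–12 m pools. The aged pools lay close together and well under the young ones. The log2 fold change was −0.69 (standard error 0.088, edgeR adjusted p = 0.00226), or 0.618 times the young level. The gene passed the threshold in each of the 13 alternative settings. Of the 150-base windows of its transcripts, 7.88% also occur in the transcripts of 2 other annotated genes, Gm5616 and Gm8741. How many of its reads this affected was not measured.

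Ybx1 was the other gene that passed in each of the 13 settings, and the one with the largest rise. It encodes a Y-box protein that packages mRNA in the cytoplasm and also influences splicing (4:119277981-119294604, minus strand). The 8–10 w pools held 23.3, 22.0 and 21.4 CPM and the 10–12 m pools held 36.2, 33.2 and 33.5 CPM. The lowest aged pool was well above the highest young one. The log2 fold change was 0.63 (standard error 0.096, edgeR adjusted p = 0.00425), or 1.55 times the young level.

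Matr3 encodes matrin 3, an abundant nuclear RNA-binding protein that represses exons, and was the fourth most abundant mRNA of the list by reads. It was at 778, 756 and 750 CPM in 8–10 w and at 599, 597 and 583 CPM in 10–12 m. The means were 761 ± 14.8 and 593 ± 8.63 CPM (SD, n = 3), far apart beside the spread within an age. The log2 fold change was −0.36 (standard error 0.051, edgeR adjusted p = 0.00333). Without the first 8–10 w pool the adjusted p was 0.0847, and 23.9% of its transcript windows are shared with the overlapping gene model Gm28285.

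Rbm7 encodes an RNA-binding subunit of the nuclear exosome targeting complex, which hands unstable nuclear RNAs to the exosome (9:48488701-48495299, minus strand). Its level was 247, 267 and 261 CPM in 8–10 w and 196, 203 and 188 CPM in 10–12 m. The groups did not overlap, and the log2 fold change was −0.40 (standard error 0.068, edgeR adjusted p = 0.00741). Without the second 8–10 w pool the adjusted p was 0.0922. These 4 genes had adjusted p-values under 0.01, and the other 8 lay between 0.04 and 0.05.

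**Figure D2:**
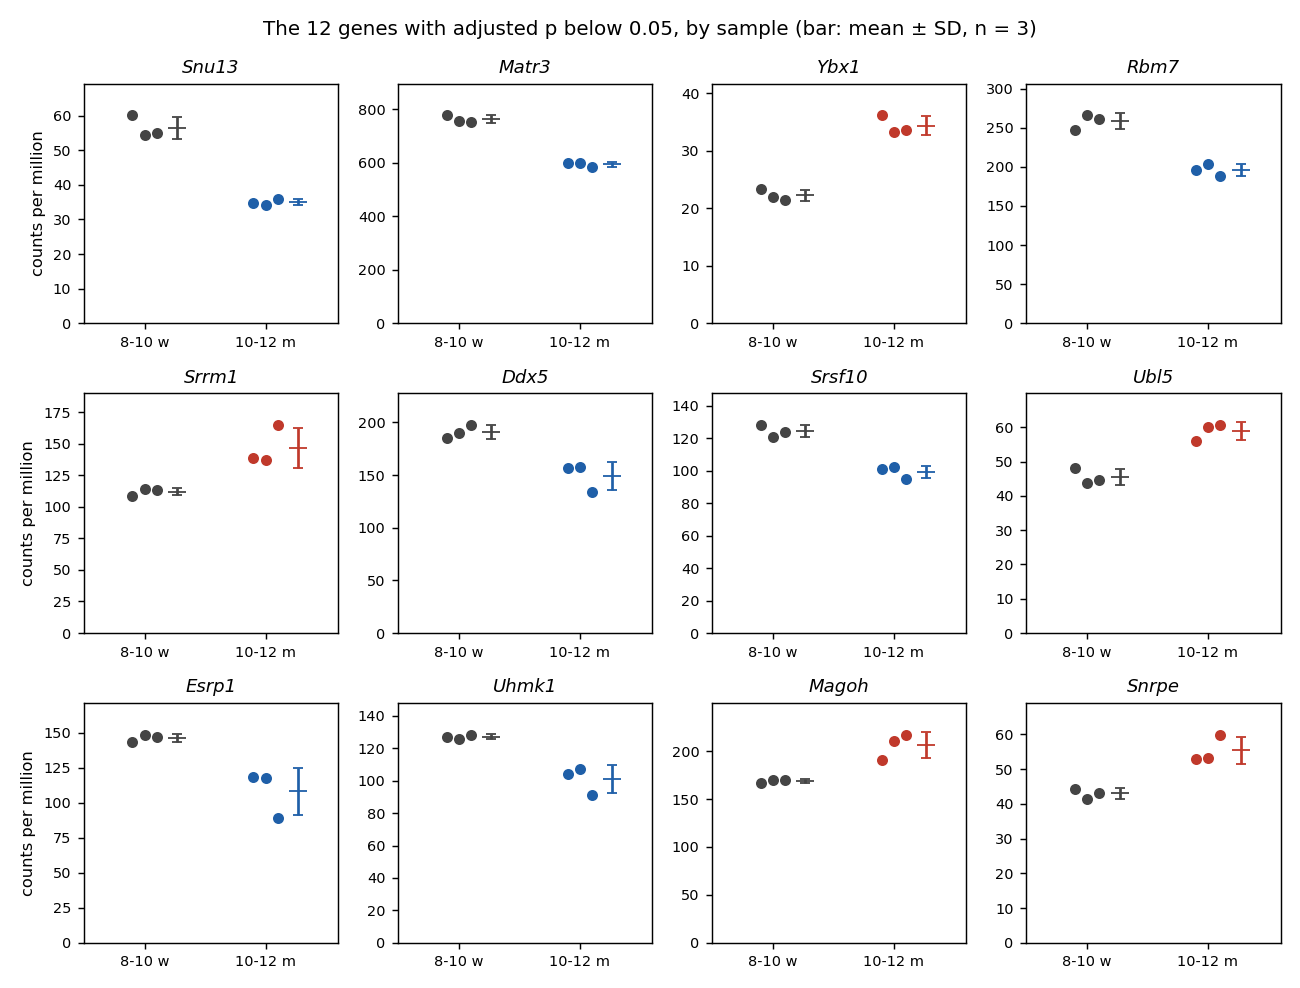
Level in CPM (vertical axes from 0) of the 12 genes with an edgeR adjusted p-value below 0.05 in each MII sample of 8–10 w (grey) and 10–12 m (red where higher, blue where lower) mice, with the mean ± SD beside the points (n = 3). In each of the 12 panels the 3 aged samples lie on 1 side of the 3 young ones, with the widest gap in proportion for Snu13 and Ybx1.

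Among the 8 genes near the threshold, 4 were higher in aged oocytes. Srrm1, a coactivator of splicing found with the exon junction complex, was at 109, 114 and 113 CPM in 8–10 w and at 139, 137 and 165 CPM in 10–12 m. Its log2 fold change was 0.39 (standard error 0.088, edgeR adjusted p = 0.0466). The third aged pool was clearly the highest, and the call was lost without the first or second 8–10 w pool or the first 10–12 m pool. Ubl5, a small ubiquitin-like protein that binds a tri-snRNP subunit, was at 48.2, 43.8 and 44.5 CPM in 8–10 w and at 56.1, 60.0 and 60.8 CPM in 10–12 m. Its log2 fold change was 0.37 (standard error 0.087, edgeR adjusted p = 0.0477), and the call was lost without each of 5 of the 6 pools, but not without the third 10–12 m one, and was also lost with all 9 oocyte samples in the model (edgeR adjusted p = 0.113). Snrpe encodes the Sm protein E, 1 of the ring proteins of the spliceosomal snRNPs, and was at 44.4, 41.3 and 43.2 CPM in 8–10 w against 52.9, 53.2 and 59.9 CPM in 10–12 m. Its log2 fold change was 0.36 (standard error 0.090, edgeR adjusted p = 0.0488), and the call was lost without any 1 of the 6 pools.

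Magoh encodes a core subunit of the exon junction complex and was the fourth most abundant mRNA of the list per kilobase of RefSeq mRNA. It was at 166, 170 and 170 CPM in 8–10 w and at 191, 211 and 217 CPM in 10–12 m. The young pools were nearly equal and the aged pools were all above them. The log2 fold change was 0.29 (standard error 0.072, edgeR adjusted p = 0.0488). The call was lost without each of 5 of the 6 pools and, like that of Snrpe, with DESeq2's size factors, with the listed genes as library size, without the filter and with all 9 oocyte samples. Its paralog Magohb was at 18.5, 20.1 and 24.4 CPM in 8–10 w and at 25.1, 24.3 and 28.3 CPM in 10–12 m, with a log2 fold change of 0.30 that did not pass (edgeR adjusted p = 0.25).

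Whether reads of such a pair can be told apart depends on the mRNA sequence, so the last 90 coding bases of both are shown, from the GENCODE vM21 transcripts on GRCm38, which is the mm10 assembly. Capitals mark the bases at which they differ, 20 in this stretch. Magoh lies at 4:107887187-107887276 on the plus strand and Magohb at 6:131284629-131284718 on the minus strand, each up to the stop codon.
Magoh: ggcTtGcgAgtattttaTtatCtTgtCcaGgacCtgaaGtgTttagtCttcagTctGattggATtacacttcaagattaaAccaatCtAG
Magohb: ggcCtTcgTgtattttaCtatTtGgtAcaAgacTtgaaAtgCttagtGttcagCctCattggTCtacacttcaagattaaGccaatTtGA
Over the 441 aligned coding bases, 84 differed (80.95% identity), and the longest run without a difference was 17 bases. A read of 150 bases within this region therefore crosses several differences, and 0 windows of that length were shared.

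The other 4 genes near the threshold were lower in aged oocytes. Ddx5 encodes an RNA helicase that acts at the 5′ splice site and in transcription, and was at 185, 190 and 198 CPM in 8–10 w and at 156, 157 and 133 CPM in 10–12 m. Its log2 fold change was −0.36 (standard error 0.081, edgeR adjusted p = 0.0466). Srsf10, an SR protein that represses splicing when dephosphorylated, was at 128, 121 and 124 CPM in 8–10 w and at 101, 102 and 94.8 CPM in 10–12 m, with a log2 fold change of −0.32 (standard error 0.074, edgeR adjusted p = 0.0466). In both genes the third aged pool was the lowest. Esrp1, best known as a splicing regulator of epithelial cells, was at 143, 149 and 147 CPM in 8–10 w and at 118, 117 and 88.9 CPM in 10–12 m. Its log2 fold change was −0.43 (standard error 0.11, edgeR adjusted p = 0.0488). Uhmk1, a kinase that phosphorylates the branch point protein SF1, was at 127, 126 and 128 CPM in 8–10 w and at 104, 107 and 91.0 CPM in 10–12 m. Its log2 fold change was −0.33 (standard error 0.082, edgeR adjusted p = 0.0488). For these genes too the third aged pool lay farthest from the young ones, while without it the number of called genes was 20 instead of 12. The number was 3 without the first or the second 8–10 w pool, 7 without the third and 4 without the first 10–12 m pool. The call of Ddx5 was lost without each of 4 of the 6 pools, those of Srsf10 and Uhmk1 without each of 5, and that of Esrp1 without each of 3. Without TMM factors none of these 4 genes passed, and with every gene of at least 1 read tested, Srsf10 and Uhmk1 did not (edgeR adjusted p = 0.0567 each).

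A total of 74 tested genes (25.3%) had no overlap between the ages, 33 (11.3%) higher and 41 (14%) lower, and all 12 called genes were among them. The next 13 genes by p-value did not pass the adjustment, 7 of them above and 6 below the young level. Srpk1, the main kinase of SR proteins, came closest, at 566, 544 and 570 CPM in 8–10 w and 467, 478 and 497 CPM in 10–12 m (log2 fold change −0.22, edgeR adjusted p = 0.0551). U2af1, which reads the AG of the 3′ splice site, had the largest value among them, at 6.14, 4.51 and 4.06 CPM in 8–10 w and 8.18, 6.19 and 9.14 CPM in 10–12 m (log2 fold change 0.67, edgeR adjusted p = 0.106). Its young and aged ranges nearly touched, and 43.3% of its transcript windows are shared with other genes. The remaining values above 0 were those of Rbm22 (0.46), Smn1 (0.37), Snrpg (0.39), Alyref2 (0.35), Rbm17 (0.35) and Snrpd1 (0.28). Below 0 were Hnrnpa1 (−0.46), Srsf3 (−0.35), Hnrnpu (−0.25), Scaf8 (−0.24) and Hnrnpc (−0.20). DESeq2 called Rbm22, Smn1, Hnrnpa1 and Srsf3 among these, and 37.6% of the windows of Hnrnpa1, a repressor of exons with many gene copies, are shared with other genes.

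Grouped by role, the values of the mRNAs that encode the proteins of the snRNP cores lay mostly above 0. Of the 17 Sm and LSm ring genes listed, 15 were tested, and 12 had a log2 fold change above 0, beside 147 of all 293 tested genes (50.2%). The median of the ring genes was 0.22, beside 0.0019 over all tested genes. Only Snrpe rose by the adjusted test, and 0 fell, beside 1.71% and 2.39% of all tested genes, while 4 were higher and 0 lower at an unadjusted p-value below 0.05, beside 7.85% higher and 9.9% lower of all tested genes. The median was 0.13 without the third 10–12 m pool, 0.33 without the second and 0.34 without TMM factors. The values ran from −0.15 for Lsm6, a subunit of the LSm rings, to 0.44 for Snrpn, a variant of the Sm protein B. In 6 ring genes every aged pool was above every young pool, as in 11.3% of all tested genes, among them Snrpd1, at 116, 126 and 120 CPM in 8–10 w and 141, 138 and 162 CPM in 10–12 m (edgeR adjusted p = 0.105). Snrpb and Snrpd2 had too few reads to be tested.

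The mRNAs of the proteins that recognise the 3′ splice site and the branch point had a median of 0.26 over 7 tested genes of 8. None passed the adjusted test, and at an unadjusted p-value below 0.05 there were 3 higher and 0 lower, beside the 7.85% and 9.9% over all genes. The median was 0.13 without the third 8–10 w pool, 0.35 without the first and 0.39 without TMM factors. Puf60, which binds the polypyrimidine tract and is the splicing factor the study followed up, had the lowest value of this list. It was at 10.9, 8.38 and 11.3 CPM in 8–10 w and at 8.99, 9.81 and 8.29 CPM in 10–12 m. The groups overlapped, and the log2 fold change of −0.18 (standard error 0.15, edgeR adjusted p = 0.626) did not pass the test. The study took up PUF60 by its binding motif and its protein, which it reported as decreased in aged MII oocytes, while these values are mRNA. The values of the other splicing genes that the study names are mRNA too, and protein was not measured here. Sf1, which binds the branch point, was at 8.21 ± 2.32 CPM in 8–10 w and 7.41 ± 1.75 CPM in 10–12 m (SD, n = 3).

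The mRNAs of the U1 and U2 snRNP proteins, the tri-snRNP proteins and the catalytic spliceosome had medians closer to 0. Of 27 tested U1 and U2 genes of 28 listed, none passed, the median was 0.056 (0.032 without the third 8–10 w pool, 0.12 without the first and 0.18 without TMM factors) and the values ran from −0.28 for Rbm10 to 0.59 for Rbm5. Of 25 tested tri-snRNP genes of 26, Ubl5 rose and Snu13 fell, beside 1.71% higher and 2.39% lower of all tested genes, and at an unadjusted p-value below 0.05 there were 3 higher and 2 lower, beside 7.85% and 9.9%. The median was 0.10 (0.023 without the third 8–10 w pool and 0.22 without TMM factors), and the highest value was that of the GTPase gene Eftud2 (0.66, edgeR adjusted p = 0.335). Of 29 tested genes of the PRP19 complex and the catalytic spliceosome of 30 listed, none passed and the median was −0.050, or 0.071 without TMM factors and 0.053 without the third 10–12 m pool. Slu7, which acts in 3′ splice site choice at the second step, was at 40.6, 39.1 and 43.3 CPM in 8–10 w and at 47.1, 44.2 and 43.5 CPM in 10–12 m, a log2 fold change of 0.13 (edgeR adjusted p = 0.481). Frg1, with 0.46, was the highest of this list and Ppil1 the lowest. The 4 tested genes of the minor spliceosome, of 7 listed, lay between −0.059 for Zcrb1 and 0.63 for Scnm1, and none passed.

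All 19 genes of the exon junction complex and its partners were tested, and their mRNAs had a median of 0.11. This median was 0.030 without the second 8–10 w pool, 0.20 without the third and 0.23 without TMM factors. Magoh and Srrm1 rose and none fell, beside 1.71% and 2.39% of all tested genes, and at an unadjusted p-value below 0.05 there were 4 higher and 1 lower, beside the 7.85% and 9.9% over all genes. The lower one was Ncbp2, a cap-binding subunit, at 203 ± 10.1 CPM in 8–10 w and 176 ± 4.97 CPM in 10–12 m (SD, n = 3, log2 fold change −0.20, edgeR adjusted p = 0.155), which was also the lowest value of the list. The highest was that of Ncbp1, its partner (0.54, edgeR adjusted p = 0.667), with under 1 CPM. The other core subunits, named here after their values were seen, did not pass. Eif4a3 was at 12.5, 11.2 and 10.8 CPM in 8–10 w and 18.5, 16.3 and 12.0 CPM in 10–12 m (log2 fold change 0.45, edgeR adjusted p = 0.171). Rbm8a, whose protein pairs with MAGOH, had a log2 fold change of −0.025 (edgeR adjusted p = 0.974).

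The mRNAs of the regulators that bind pre-mRNA lay mostly below 0 with TMM scaling, but not without TMM factors, as given for each list. Of 29 tested genes for hnRNP proteins and their relatives, of 32 listed, 22 had a log2 fold change below 0, with a median of −0.097. Matr3 fell and none rose by the adjusted test, beside 2.39% and 1.71% of all tested genes, and at an unadjusted p-value below 0.05 there were 0 higher and 7 lower, beside 7.85% and 9.9% over all genes. The median was −0.14 without the first 8–10 w pool and −0.038 without the third. The lowest value was −0.61 for Tia1, at about 1 CPM (edgeR adjusted p = 0.529). Without TMM factors the median of this list was 0.025 and 15 genes were above 0, while its distance from the median of all genes stayed at −0.099. Ptbp1, a repressor that binds pyrimidine tracts, was at 30.2 ± 3.93 CPM in 8–10 w and 28.5 ± 5.24 CPM in 10–12 m (SD, n = 3, log2 fold change −0.085, edgeR adjusted p = 0.816). Hnrnpm was at 7.64 ± 1.57 and 7.48 ± 0.114 CPM (SD, n = 3, log2 fold change −0.026, edgeR adjusted p = 0.966).

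Of 24 tested SR and SR-like genes of 26, Srsf10 fell and none rose (2.39% and 1.71% of all tested genes did), with a median of −0.066, or 0.056 without TMM factors, −0.13 without the first 10–12 m pool and −0.014 without the second. At an unadjusted p-value below 0.05 there were 1 higher and 5 lower, beside the 7.85% and 9.9% over all genes. The values ran from −0.60 for Tra2a (edgeR adjusted p = 0.214) to 0.68 for Arl6ip4 (edgeR adjusted p = 0.371), which was 0.31 without the third 8–10 w pool and 1.07 without the first. Srsf3, the smallest SR protein, was at 183, 183 and 217 CPM in 8–10 w and 162, 163 and 131 CPM in 10–12 m (edgeR adjusted p = 0.102). Srsf5 was at 62.0 ± 6.45 and 60.7 ± 7.42 CPM (SD, n = 3, log2 fold change −0.032, edgeR adjusted p = 0.92). All 12 genes of the kinases and phosphatases of splicing were tested. Uhmk1 fell and none rose, beside 2.39% and 1.71% of all tested genes, and 0 were higher and 3 lower at an unadjusted p-value below 0.05, beside 7.85% and 9.9%. Values above 0 were found in 3 of the 12, beside 50.2% of all tested genes, and the median was −0.12, or 0.0029 without TMM factors. The highest value of these was that of Ppp1r8 (0.28, edgeR adjusted p = 0.686).

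Of 25 tested genes for other splicing regulators, many of them restricted to certain tissues, of 36 listed, Ybx1 rose and Rbm7 and Esrp1 fell (1.71% and 2.39% of all tested genes did), and at an unadjusted p-value below 0.05 there were 1 higher and 5 lower, beside 7.85% and 9.9%. The median was −0.061, or 0.061 without TMM factors and 0.0037 without the third 8–10 w pool. Khdrbs1 (Sam68) was at 16.8 ± 2.29 CPM in 8–10 w and 14.0 ± 2.02 CPM in 10–12 m (SD, n = 3, log2 fold change −0.27, edgeR adjusted p = 0.366). Both listed helicases outside the spliceosome lists had values below 0, with Ddx5 called and Ddx1 at −0.31 (edgeR adjusted p = 0.708). The 4 m6A genes, from Mettl14 at −0.18 to Ythdc1 at −0.00053, were all below 0 and none passed, and without TMM factors 2 of them were above 0. In the SMN complex, which loads Sm rings onto snRNA, the 7 genes had a median of −0.23 and none passed. Its median was −0.27 without the second 10–12 m pool, −0.042 without the third 8–10 w pool and −0.11 without TMM factors. Its values ran from −0.32 for Ddx20 to 0.37 for Smn1, at 20.1 ± 1.85 CPM in 8–10 w and 26.1 ± 2.14 CPM in 10–12 m (SD, n = 3, edgeR adjusted p = 0.105).

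Poly(A) binding, CPEB, IGF2BP and FXR proteins govern stored mRNA in the cytoplasm. None of their 14 tested genes had an unadjusted p-value below 0.05, beside 17.7% of all tested genes. Their median was −0.095, or 0.027 without TMM factors, and they ran from −0.60 for Pabpc1 to 0.24 for Pabpn1. The 5 tested genes of 8 for tRNA and XBP1 splicing had a median of 0.23 and none passed, and the median was −0.088 without the second 8–10 w pool. Ern1, the kinase and nuclease that cuts Xbp1 mRNA, was at 550 ± 26.6 CPM in 8–10 w and 455 ± 75.1 CPM in 10–12 m (SD, n = 3, log2 fold change −0.27, edgeR adjusted p = 0.194), and the ligase gene Rtcb had the highest value, 0.41. The only cleavage and polyadenylation gene listed, Clp1, had a value of −0.19 (edgeR adjusted p = 0.856). Of the 5 HSP70 genes 2 were tested. Hspa8, the constitutive chaperone, was at 2.23, 3.30 and 1.98 CPM in 8–10 w and 3.93, 5.18 and 3.33 CPM in 10–12 m (log2 fold change 0.75, edgeR adjusted p = 0.155), and Hspa2 had a value of 0.37 (edgeR adjusted p = 0.508).

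**Figure D3:**
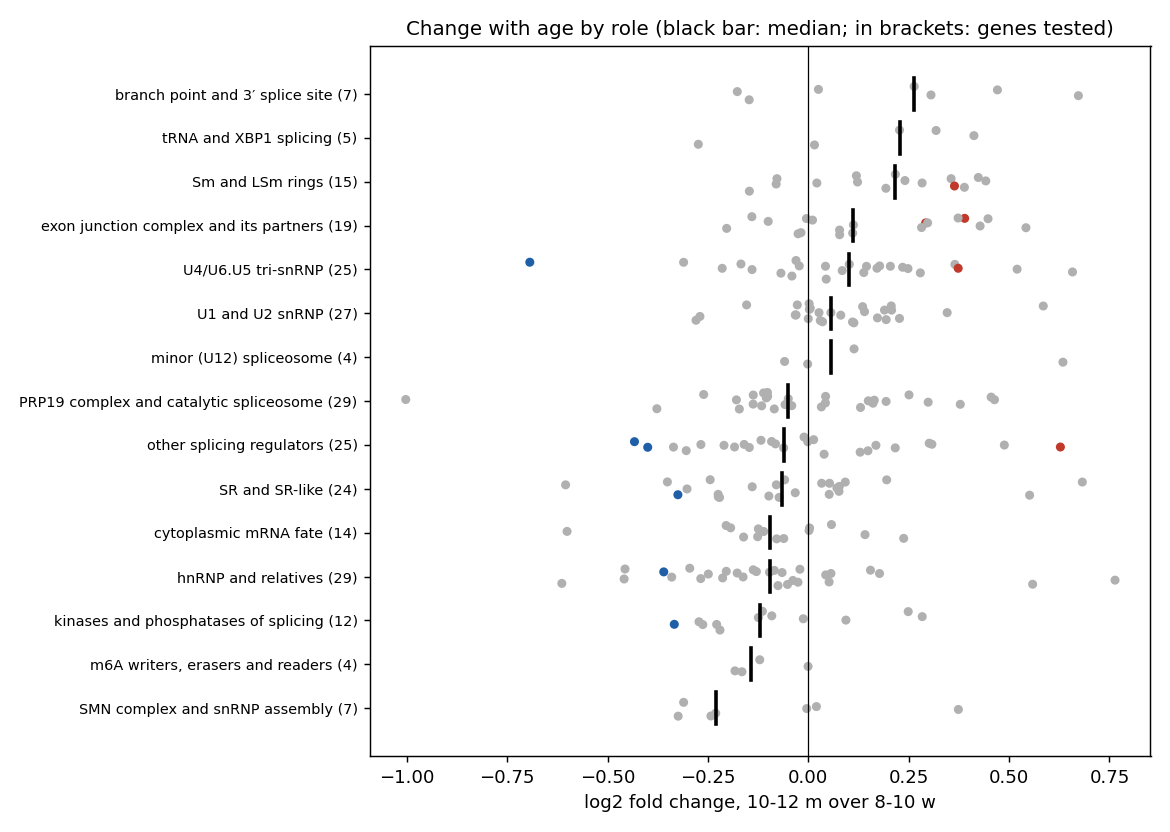
Log2 fold change of 10–12 m over 8–10 w MII oocytes (horizontal axis) for the tested genes of each role (rows, sorted by their median, with the number of genes in brackets). Black bars are medians, red and blue points are genes with an edgeR adjusted p-value below 0.05, and vertical scatter within a row has no meaning. The median was 0.22 for Sm and LSm rings and −0.097 for hnRNP proteins and relatives (0.34 and 0.025 without TMM factors), and the points of the roles drawn, those with at least 4 tested genes, fall on both sides of 0 except for the m6A genes.

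Short mRNAs tended to have values above 0. With the tested genes split into 4 classes of RefSeq mRNA length, 52 of the 75 genes in the shortest class (69.3%, mRNAs of at most 1764 nt) had a log2 fold change above 0, with a median of 0.12. In the other classes 45.8%, 42.5% and 42.5% of the genes were above 0. Across the 293 genes, which share libraries and are not independent, the Spearman correlation of the log2 fold change was −0.264 with mRNA length, −0.268 with the length of the 3′ untranslated region and 0.235 with the GC content of the transcript. The called genes showed the same order, with a median mRNA length of 1939 nt for the 5 higher and 3421 nt for the 7 lower genes, beside 2722 nt over all tested genes. Their 3′ untranslated regions had medians of 253 and 1581 nt, beside 697 nt. The Sm and LSm rings had a median mRNA length of 813 nt and the hnRNP list 2844 nt, so that role and length cannot be told apart for the ring genes. The correlation with mRNA length was −0.013 in the 6–8 m comparison (290 genes), which uses the same young pools, and −0.193 in 2-cell embryos (289 genes). With the length of the 3′ untranslated region it was −0.192 and −0.050, and with GC content 0.271 and −0.033, in the same order. The shares of unaligned and low-quality reads moved with age as well, and their part in the length relation was not tested.

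**Figure D4:**
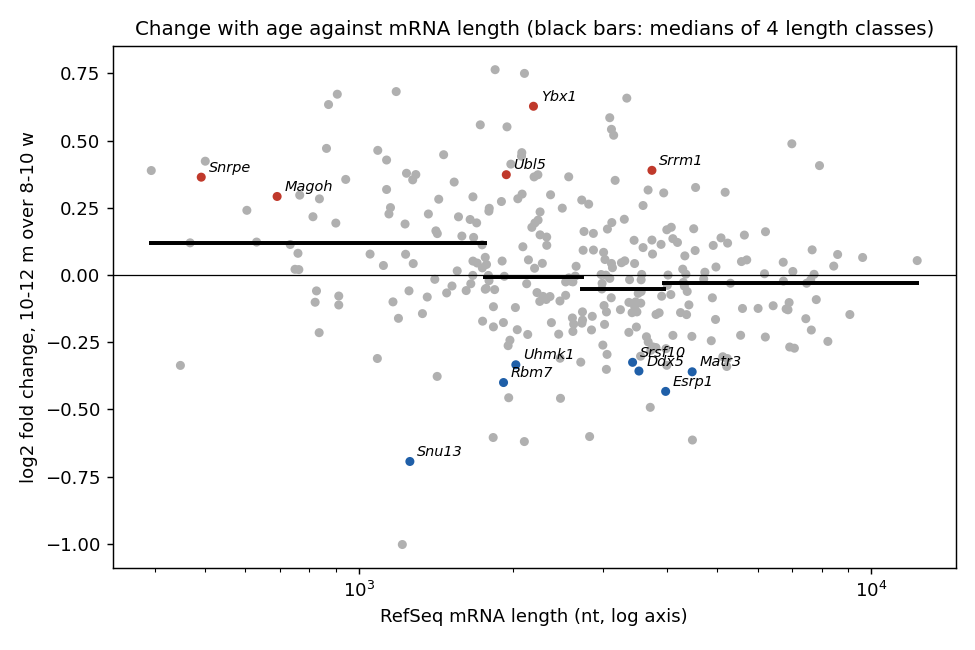
Log2 fold change of 10–12 m over 8–10 w MII oocytes (vertical axis) against RefSeq mRNA length in nt (horizontal log axis), 1 point per tested gene (n = 293), with called genes in red and blue. Black bars are the medians of the 4 length classes. The bar of the shortest class lies at 0.12 and the others between −0.052 and −0.0076.

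The ends of 4 called mRNAs are shown because libraries of this kind are primed from the poly(A) tail that follows them. In growing and maturing oocytes, the hexamer AATAAA directs polyadenylation, and a nearby TTTTAT can recruit CPEB proteins that lengthen or shorten the tail. The stretches are the transcript strand of GENCODE vM21 on GRCm38, 30 bases each, with 1 of these hexamers in capitals. Ybx1 is shown at 4:119277984-119278013 (minus strand), Srrm1 at 4:135321111-135321140 (minus strand), Ddx5 at 11:106780360-106780389 (minus strand) and Uhmk1 at 1:170193425-170193454 (minus strand), all within the last 50 bases of the transcript used.
Ybx1: caagcacctgttAATAAAggtcttaaataa
Srrm1: tagagtgaaataTTTTATgccaaaaaaaaa
Ddx5: gttgtcttaactAATAAAtgtgatttttct
Uhmk1: taagagtgataaAATAAAgcttacaaagaa
In the last 100 bases of the transcript, searched on the transcript strand only, AATAAA occurred in 62.8% of the 293 tested genes and TTTTAT in 18.8% (both in 13.0%), and these letters cannot overlap. Of the 5 higher genes, 3 held AATAAA and 2 held TTTTAT, and of the 7 lower genes 3 held AATAAA and 0 held TTTTAT. With so few genes these counts are a description, and a hexamer in this window is not shown to be used.

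The 6–8 m oocytes were compared with the same 3 young pools, so that the values of the older groups are given side by side only. In that comparison 2 of 292 tested genes (0.685%) passed, Rbm7 and Srsf3. The log2 fold change of Rbm7 was −0.43 at 6–8 m (edgeR adjusted p = 0.00753) and −0.40 at 10–12 m. With all 9 oocyte samples scaled together, Rbm7 was at 181, 213 and 181 CPM in the 6–8 m pools. Matr3 was at 779, 723 and 608 CPM there, so that 1 pool lay near the aged level and the others near the young one, and its log2 fold change was −0.12 (edgeR adjusted p = 0.404). Snu13 was at 42.7, 52.1 and 33.4 CPM, with a log2 fold change of −0.41 (edgeR adjusted p = 0.113). Ybx1 was at 25.0, 25.8 and 28.0 CPM, with a log2 fold change of 0.24 (edgeR adjusted p = 0.343).

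In 2-cell embryos, which were sampled separately, the same age contrast (2 samples per group) gave 17 of 13139 tested genes (0.129%) at an adjusted p-value below 0.05. Of the 289 listed genes tested at both stages, 0 were among them in edgeR and 0 in DESeq2, and 23 (7.96%) had an unadjusted p-value below 0.05, beside 10.3% of all genes tested in embryos. By the study's methods the embryo samples came from 2 separate experiments, which neither this model nor the counts of overlap below take into account. With the replicate number of the titles as a block, 3 genes were called in edgeR. The labels do not say that these numbers mark the experiments. Of the 12 genes called in oocytes, 9 had the same sign in embryos, 4 of the 5 higher and 5 of the 7 lower ones. The share of same signs over the 289 genes was not counted, so these counts are only a description. The median over the 289 genes in embryos was −0.079, so that values below 0 were the more common ones there. Ubl5, for example, was at 230 and 201 FPM (fragments scaled like the CPM of the oocytes) in 8–10 w embryos and at 316 and 238 in 10–12 m embryos, a log2 fold change of 0.36 (edgeR adjusted p = 0.61). Ddx5 was at 237 and 252 FPM in 8–10 w and at 211 and 199 in 10–12 m, a log2 fold change of −0.26 (edgeR adjusted p = 0.689). Snu13 was at 729 and 676 FPM in 8–10 w embryos and at 707 and 573 in 10–12 m ones, where the groups overlapped (log2 fold change −0.13, edgeR adjusted p = 0.871). Each 10–12 m sample was below the 8–10 w sample of the same replicate number. Of the 289 genes, 118 (40.8%) had no overlap between the ages in embryos, and 14 (4.84%) had none at either stage but on opposite sides. Of the 74 genes without overlap in oocytes, these 14 made up 18.9%, and 22 (29.7%) had none in embryos on the same side. Across the 289 genes the log2 fold changes of the stages had a Pearson correlation of 0.131 and a Spearman correlation of 0.154, as a description over genes that share libraries. The median log2 fold change of the Sm and LSm rings was 0.31 in embryos, beside −0.079 over the genes tested at both stages, and that of the hnRNP list was −0.058. At 6–8 m, with the shared young pools, the ring median was 0.051. In embryos the 2 HSP70 genes had a median of 0.032. Some lists with a median above 0 in oocytes had one below 0 in embryos, namely −0.043 for branch point and 3′ splice site recognition, −0.11 for the exon junction complex, −0.061 for the tri-snRNP, −0.12 for U1 and U2, −0.11 for the minor spliceosome and −0.013 for tRNA and XBP1 splicing. Of these, branch point and 3′ splice site recognition, the tri-snRNP and tRNA and XBP1 splicing still lay above the embryo median of −0.079 over all shared genes. The other lists of that sentence lay below it. The SR list had −0.21, the SMN complex −0.13 and the kinases and phosphatases −0.077.

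**Figure D5:**
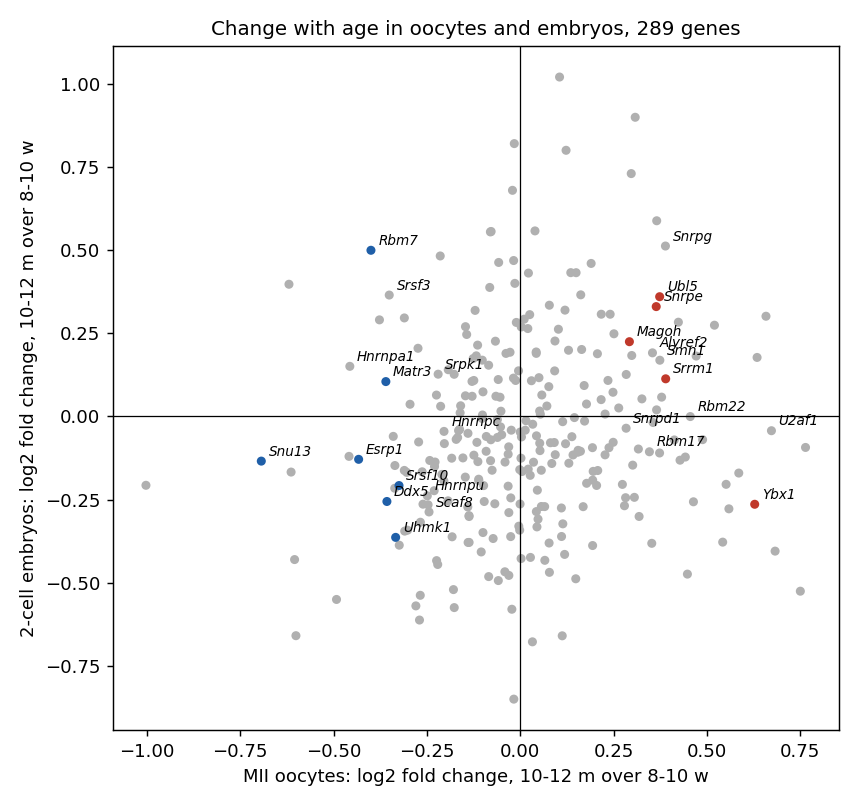
Log2 fold change of 10–12 m over 8–10 w in 2-cell embryos (vertical axis) against that in MII oocytes (horizontal axis), 1 point per gene tested at both stages (n = 289). Red and blue points are genes with an edgeR adjusted p-value below 0.05 in oocytes, and names mark the 25 genes of lowest p-value in oocytes. Points lie in all 4 combinations of signs, and Ybx1, Rbm7 and Matr3 are the called genes with opposite signs at the 2 stages.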

How the data were processed

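Pools of MII oocytes were amplified by a Smart-seq2 type protocol without strand marking and sequenced as 150-bp paired ends. The authors trimmed reads with Cutadapt, used STAR on mm10, and deposited unnormalized HTSeq counts per gene, with an annotation not given in the sources used here. For 2-cell embryos the authors deposited fragment counts per RefSeq transcript, of which the longest was taken for a gene. The deposited signal (FPM) and FPKM columns were not used.

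The library size was the sum of reads on listed genes, on no feature and on more than 1 feature. Ages were compared with edgeR 4.0.16 (quasi-likelihood F test, TMM, minimum count 10, minimum total 15; R 4.3.3), with only the compared groups in the oocyte model and all 6 samples in the embryo model, and p-values were adjusted over all tested genes by the Benjamini-Hochberg method. Standard errors come from the F statistic. The common coefficient of variation was 0.103. The procedure was tested on simulated data. The alternatives were DESeq2 1.42.0, other scalings, no filter, all 9 oocyte samples, a replicate block and each sample left out. Named genes are those called, the next by p-value until 25, the extremes of each role list and the splicing genes that the study names. From these, 1 gene is not reported here. Members and lists were chosen with earlier results of these data known, and 2 lists (cytoplasmic mRNA fate, HSP70) and Rbmx in the hnRNP list were added once the gene names in the files had been seen. Coordinates are those of GENCODE vM21, and RefSeq gave the mRNA lengths.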

Additional observations from a re-analysis of the deposited data

Results flagged for a closer look

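In 4 of the 25 genes with the smallest p-values, every 10–12 m sample lay on 1 side of every 8–10 w sample in MII oocytes and on the other side in 2-cell embryos. The difference between the stages was not tested. The count is close to the share among the tested genes without overlap in oocytes. Of those 74 genes, 14 (18.9%) had no overlap on the opposite side in embryos and 22 (29.7%) none on the same side. Over all 289 genes tested at both stages, these 14 made up 4.84%. In embryos, where a group has 2 samples, 40.8% of the 289 genes had no overlap. Rbm7 had a log2 fold change of −0.40 in oocytes and 0.50 in embryos, where it was at 77.8 and 101 FPM (fragments scaled to the library) in 8–10 w and at 114 and 139 in 10–12 m (edgeR adjusted p = 0.394). Ybx1 had 0.63 in oocytes and −0.26 in embryos, at 155 and 180 FPM in 8–10 w and 137 and 142 in 10–12 m (edgeR adjusted p = 0.686). Srsf3 had −0.35 in oocytes and 0.37 in embryos, at 71.8 and 70.9 FPM in 8–10 w and 88.7 and 95.1 in 10–12 m (edgeR adjusted p = 0.547). Hnrnpa1 had −0.46 in oocytes and 0.15 in embryos, at 148 and 138 FPM in 8–10 w and 158 and 159 in 10–12 m (edgeR adjusted p = 0.832). Of these only Ybx1 and Rbm7 passed the adjusted test in oocytes, and none passed in embryos.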

How the results depend on the processing

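Of the 12 calls, only Snu13 and Ybx1 held in all 13 alternatives, and Snrpe was lost without each of the 6 samples. The number of calls, 12 (5 higher, 7 lower), ranged from 3 to 20 with each sample left out, from 1 to 7 for higher and from 2 to 13 for lower genes. It was 20 without the third 10–12 m sample, 4 without the first, 3 without the first or the second 8–10 w sample and 7 without the third. The higher genes were 3 with DESeq2's size factors, 3 with the listed genes as library size, 3 with every gene of at least 1 read, 2 with all 9 oocyte samples and 12 without TMM, which left 3 lower. With the replicate number as a block, 3 genes were called, 1 higher and 2 lower (Ybx1, Snu13 and Matr3), and Rbm7 had an adjusted p of 0.0557 in edgeR. The numbers are those of the sample titles, and the names of the deposited oocyte tables carry others, so that the block holds only for the titles. The labels do not say that numbers mark shared mice or days, and same-numbered samples correlated in their deviations with r = 0.2, 0.145 and 0.0906, where every sample correlated best with its own number, which is a hint from the data and not a design.

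In the 6–8 m comparison, 2 calls became 11 with DESeq2, 8 with every gene of at least 1 read, 4 with all 9 samples, 0 without TMM, 1 with the replicate block and 0 to 11 with a sample left out. In embryos, 17 calls became 92 with DESeq2, 171 with every gene of at least 1 fragment, 147 with only the 4 samples compared, 2 without TMM, 3 with the replicate block and 0 to 155 with a sample left out, so that the embryo count is not stable. The causes were not tested. In the 10–12 m oocyte comparison, no setting called a gene past a log2 fold change of 1 in size.

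Of 793 values of 61 named genes, 689 kept their sign and side of the threshold, 62 lost and 16 gained a call, and 26 changed sign in 9 genes, none called. Without TMM, log2 fold changes turned to 0.097 for Hnrnpm, 0.037 for Ptbp1, 0.089 for Srsf5, 0.12 for Ythdc1 and 0.063 for Zcrb1. With a sample left out, Clp1 ran from −0.49 to 0.060, Hnrnpm from −0.15 to 0.14, Lsm6 from −0.40 to 0.027, Ppp1r8 from −0.049 to 0.55, Ptbp1 from −0.23 to 0.034, Sf1 from −0.36 to 0.054, Srsf5 from −0.14 to 0.064, Ythdc1 from −0.022 to 0.025 and Zcrb1 from −0.20 to 0.057. Ythdc1 was also 0.014 with DESeq2, 0.012 with its size factors, 0.0045 with the listed genes as library size, 0.0078 with every gene of at least 1 read and 0.010 with all 9 samples.

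With 3 samples per age, standard errors of the log2 fold change had a median of 0.13, which sets what could be detected. The scale is set by the listed genes, and a shift that all of them share cannot be seen apart from the library.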

Other observations

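The number of reads that HTSeq assigned to more than 1 listed gene was 15, 12 and 15 in the 8–10 w oocyte samples and 6, 10 and 2 in the 10–12 m ones, which did not overlap (exact permutation test, two-sided p = 0.1, the smallest possible).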
